A study of Mus musculus with 8 samples.

Results

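Embryonic cortices hold a small population of macrophages, and 10 genes that such cells use were followed here in the count tables of both stages. The genes were Csf1r, Cx3cr1, Ptprc, Mrc1, Aif1, C1qa, C1qb, C1qc, Tyrobp and Fcer1g. They were chosen by name as known macrophage and microglia genes, and all 10 were found in the 23420 genes listed at E11.5 and in the 78298 genes listed at E12.5. All 10 also passed the filter on low counts at both stages, which left 14935 genes at E11.5 and 16326 at E12.5.

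Poly(A) RNA was sequenced from cortices of Mboat7+/- and Mboat7-/- embryos at E11.5 and E12.5, and each genotype was represented by 2 embryos per stage, which gives 8 cortices. Mboat7 encodes the acyltransferase that places arachidonic acid in phosphatidylinositol. The mice were kept on C57BL/6N, the labels name no treatment, and the deletion is present in every cell, including macrophages and cells outside the brain. The controls were heterozygous, so each of them also carried 1 deleted allele. The stages were sequenced at different providers and on different instruments, so a difference between stages cannot be told apart from a difference between providers. Levels were therefore not tested between stages. Only the difference between genotypes was compared between stages, as an interaction of stage and genotype, and the same limit holds for it.

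Macrophages reach the embryonic brain from the yolk sac before the bone marrow exists. Those that settle inside the tissue become microglia, and others stay in the meninges and around vessels. Both depend on the receptor CSF1R and on the transcription factor PU.1, and both engulf dying cells and produce the recognition molecule of the complement system. In RNA from whole cortices, fewer macrophages and less RNA per macrophage cannot be told apart.

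The total count was between 20799311 and 28189771 per cortex, and a count of 3, taken as the floor, was worth between 0.106 and 0.144 CPM (counts scaled to a common library total). Intervals and floors cover counting error only. For Mboat7, the Mboat7+/- cortices had 700 and 876 counts at E11.5 against 1103 and 860 in the cortices labelled Mboat7-/-, and 739 and 782 against 730 and 729 at E12.5. Scaled for depth, Mboat7 was higher in both Mboat7-/- cortices at E11.5 (mean 36.9 against 32.7 CPM) and lower in both at E12.5. The targeted gene was therefore not lower at both stages in the libraries labelled Mboat7-/-, so the direction of each difference below rests on the labels. Mboat7+/- replicate 1 at E11.5 was the only cortex with Xist RNA (17875 counts, against at most 2 in each of the others), so the sexes were unbalanced at that stage. The 12 marker genes of cortical progenitors and neurons were counted in every cortex, at a sum of 2462 to 3185 CPM. At E11.5, between 75.5% and 77.4% of the counts from 1 to 20 were even numbers, against 39.8% to 40.4% at E12.5, and why was not tested.

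PU.1 binds DNA at sites built around the letters GAGGAA, and the members share this regulator as background. The 250 bases before the start of each gene were therefore searched for those letters and for their reverse complement, TTCCTC. RefSeq windows on GRCm38.p6 were found for 7 of the 10 genes, and 5 of those 7 (Ptprc, Mrc1, C1qb, C1qc and Aif1) held a match on either strand. Of all genes with a window, 25.85% held one. A match is a description of letters and not a site of binding, which was not measured here. The following 3 stretches of 60 bases are shown because Mrc1 had the smallest p among the members and because C1qb and C1qc lie side by side yet differ in their values. Each is written 5′ to 3′ on the strand of its gene, with the matched letters in capitals.
Mrc1: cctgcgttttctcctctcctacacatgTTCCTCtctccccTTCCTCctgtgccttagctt
C1qb: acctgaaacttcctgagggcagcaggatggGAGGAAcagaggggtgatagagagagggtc
C1qc: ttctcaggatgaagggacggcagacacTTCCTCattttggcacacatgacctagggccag
The Mrc1 stretch lies at chr2:14229207-14229266 on the plus strand, with 2 of the 3 matches of the Mrc1 window, the first of them 180 bases before the start. The C1qb stretch lies at chr4:136886201-136886260 on the minus strand, with its match 30 bases before the start. The C1qc stretch lies at chr4:136893075-136893134 on the minus strand, with its match 193 bases before the start.

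The 10 genes together made up a small share of the RNA. At E11.5 they summed to 1658 and 1730 counts in Mboat7+/- cortices, against 2264 and 1985 counts in Mboat7-/- cortices, and at E12.5 to 1189 and 1008 against 1364 and 1593 counts. This was between 0.00454% and 0.00811% of all counts. On library sizes scaled by the TMM method of edgeR, the summed level was 76.6 and 65.4 CPM in Mboat7+/- and 80.1 and 80.4 CPM in Mboat7-/- cortices at E11.5. At E12.5 it was 57.1 and 46.7 CPM against 59.2 and 70.4 CPM. At each stage both sums labelled Mboat7-/- lay above both Mboat7+/- sums. Among single genes, 23.1% of all genes lay above in this way at E11.5 and 16.9% at E12.5. Mrc1 alone made up 12 and 10.8 CPM of the Mboat7+/- sums at E11.5, against 16.8 and 16.2 CPM in Mboat7-/- cortices. With Mrc1 left out, the sums of the genotypes overlapped at E11.5. A sum over chosen genes was not tested. All 10 genes had a lower mean CPM at E12.5 than at E11.5, in both genotypes, where stage and provider coincide.

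**Figure D1:**
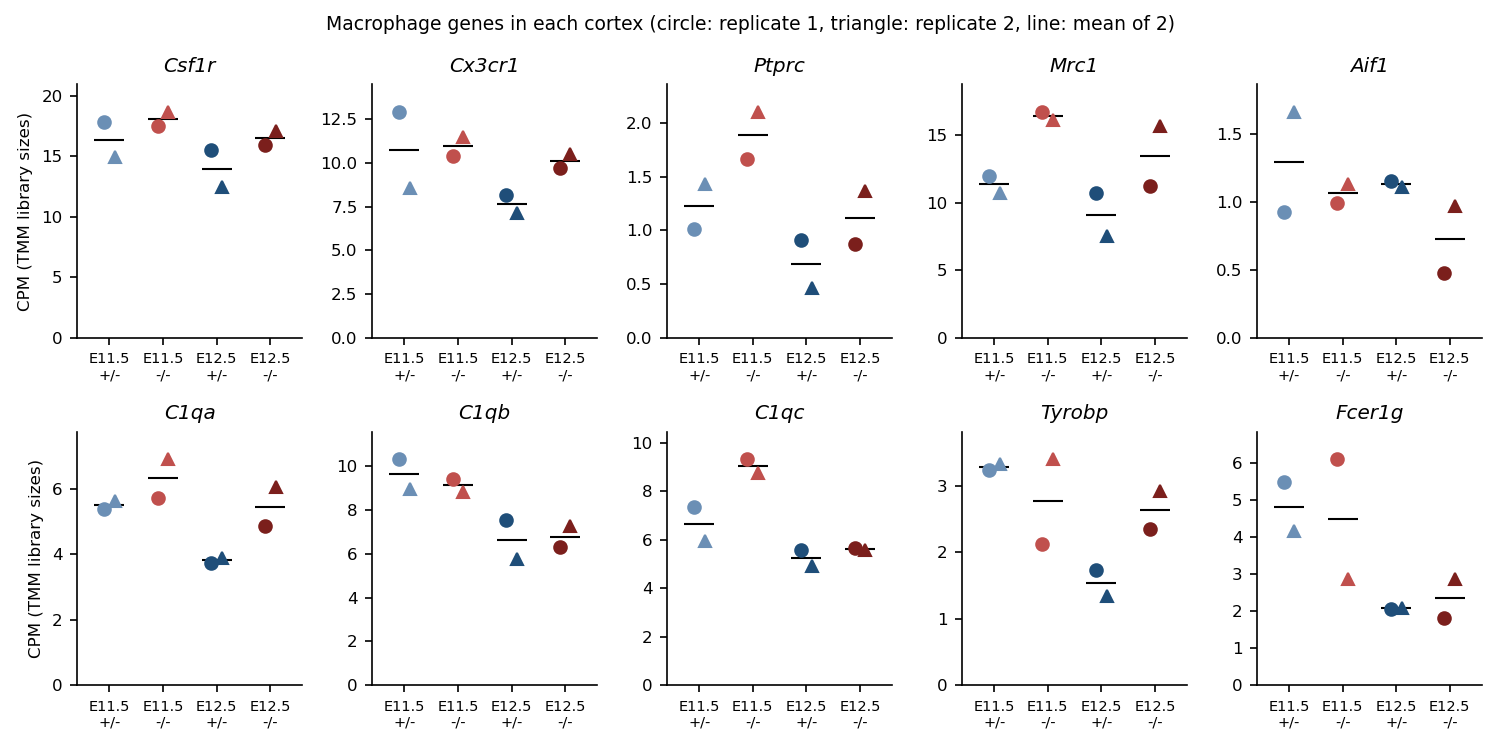
Level of each of the 10 macrophage genes in each cortex, in CPM on TMM-scaled library sizes, by stage and genotype; circles are replicate 1, triangles replicate 2, and lines the mean of the 2. Mrc1 and C1qa lie higher in both Mboat7-/- cortices at both stages, whereas Fcer1g and Tyrobp spread widely within the Mboat7-/- cortices at E11.5.

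Taken per kilobase of transcript, which allows genes to be set side by side, the short complement and adaptor transcripts ranked above the receptors at E11.5. In Mboat7+/- cortices at E11.5 the mean was 8.87 CPM per kb for C1qb, 7.16 for Fcer1g, 5.81 for Tyrobp, 5.52 for C1qc and 5.3 for C1qa. Csf1r followed at 3.49, Cx3cr1 at 2.39, Mrc1 at 2.12, Aif1 at 1.48 and Ptprc at 0.242 CPM per kb. C1qb was first and Ptprc last in all 4 groups, while at E12.5 Csf1r passed Tyrobp in Mboat7+/- and Fcer1g in Mboat7-/- cortices. In the same group C1qc and C1qa (SD 0.83 and 0.153 CPM per kb, n = 2) did not differ beyond the spread between embryos, whereas C1qa and Csf1r (SD 0.444) did, as did Aif1 and Ptprc (SD 0.597 and 0.058).

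No member met the criterion used for the volcano plots of the study, an FDR under 0.05 with a log2 fold change beyond 1 in size, at either stage or over both. Among all genes tested by edgeR's quasi-likelihood method, 0% met it at E11.5 and 0.0184% at E12.5. At an unadjusted p under 0.05 there was 1 member at E11.5, where 14.1% of all genes had one, and 4 members at E12.5, where 4.23% did. The 4 became 0 without Mboat7+/- replicate 2 or without Mboat7-/- replicate 2 of that stage, 1 under DESeq2, and 2 under edgeR's exact test or with the replicate block, and the 1 at E11.5 became 0 without Mboat7+/- replicate 2. All 5 of these values were higher in the Mboat7-/- cortices, as were 8.03% and 2.85% of all genes, while 0 members were lower with such a p, against 6.07% and 1.38%. Over both stages 2 members had such a p, again both higher, against 12.4% of all genes in either direction, 7.4% higher and 4.97% lower. The count was 1 under upper-quartile normalization, under DESeq2, with the block and without any of 3 cortices in turn. Among the alternatives that kept every cortex, the highest count over both stages was 3. On the log2 scale the 10 genes had a median fold change of 0.10 at E11.5, where 6 were above 0, and of 0.32 at E12.5, where 9 were. Over both stages the median was 0.20, with 8 above 0. For all genes tested the medians were -0.01, 0.00 and 0.01, and 48.9%, 51.2% and 51.7% of them lay above 0. At E11.5 both Mboat7-/- cortices lay above both Mboat7+/- cortices for 4 members and below for 0 (all genes: 23.1% above and 23.3% below). At E12.5 this was so for 5 members above and 1 below (all genes: 16.9% above and 15.2% below). The 2 members C1qa and Mrc1 were above at both stages, as were 4.5% of all genes, and 0 members were below at both, against 4.59%.

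**Figure D2:**
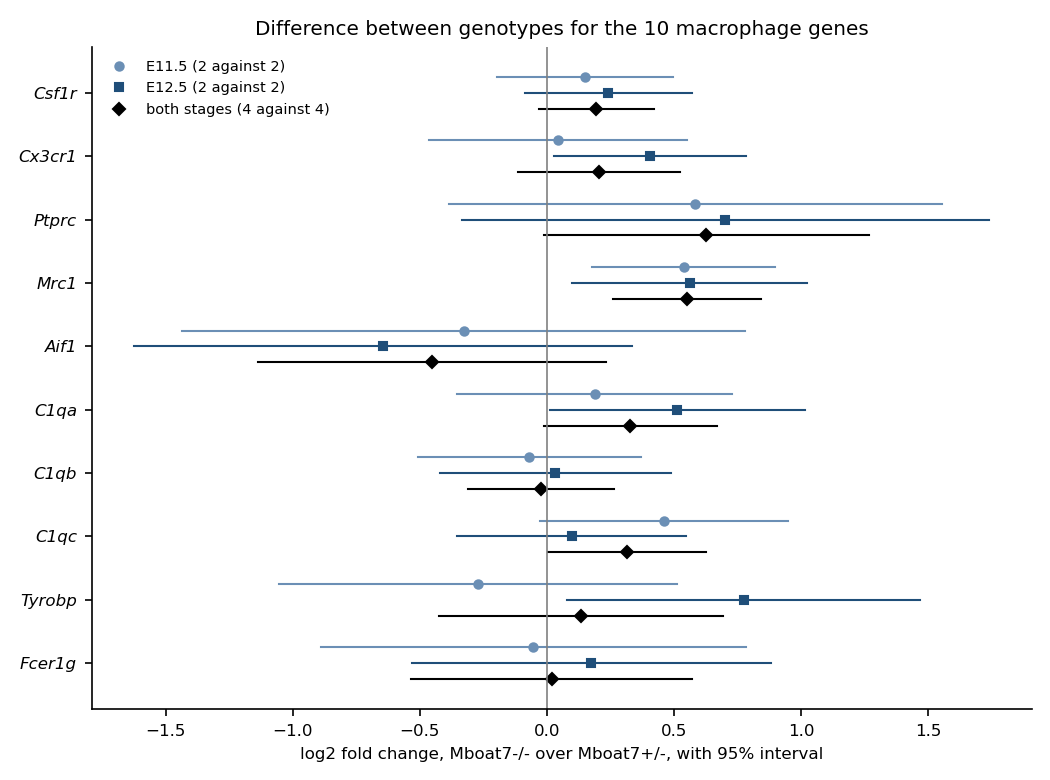
Log2 fold change of each gene, Mboat7-/- over Mboat7+/-, for the stages one by one and for all 8 cortices with stage as a term; lines are 95% intervals of edgeR's quasi-likelihood fit, not adjusted for the number of genes. The interval of Mrc1 lies above 0 in all 3 fits, that of Aif1 is centred below 0, and those of C1qb and Fcer1g are centred close to 0.

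Csf1r and Cx3cr1 encode the receptors through which the neural tissue speaks to its macrophages. CSF1R binds the growth factors CSF1 and interleukin-34, on which these cells depend for survival, and CX3CR1 binds fractalkine, which neurons make. Csf1r had 387 and 395 counts in Mboat7+/- and 495 and 462 counts in Mboat7-/- cortices at E11.5, which is 17.9 and 14.9 CPM against 17.5 and 18.7 CPM, so the genotypes overlapped. At E12.5 its level was 15.52 and 12.46 CPM against 15.9 and 17.1 CPM, higher in both Mboat7-/- cortices by a small margin. The fitted difference on the log2 scale was 0.15 (standard error 0.15, adjusted p = 0.694 from edgeR) at E11.5 and 0.24 (standard error 0.15, adjusted p = 0.954 from edgeR) at E12.5. Over both stages it was 0.20, with a 95% interval from -0.03 to 0.42, so that a rise of more than 1.34-fold lay outside the interval.

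Cx3cr1 had 280 and 227 counts in Mboat7+/- and 294 and 284 counts in Mboat7-/- cortices at E11.5. The first of these gave the highest level at that stage, 12.9 CPM, and the second the lowest, 8.58 CPM, with the Mboat7-/- cortices between them. At E12.5 the counts were 170 and 154 against 224 and 238, or 8.17 and 7.13 CPM against 9.73 and 10.52 CPM, with no overlap. For Cx3cr1 the log2 fold change was 0.04 (standard error 0.22) at E11.5 and 0.40 (standard error 0.17, unadjusted p = 0.0381, adjusted p = 0.954 from the edgeR test) at E12.5. The difference between these values was 0.36, with adjusted p = 0.934 for the interaction of stage and genotype in the edgeR fit.

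The ligands of these receptors were measured in the same cortices. Csf1 was at 19.4 and 13.2 CPM in Mboat7+/- and 14.2 and 18.3 CPM in Mboat7-/- cortices at E11.5, and at 8.46 and 7.92 against 8.38 and 10.2 CPM at E12.5, overlapping at both. Il34, the second CSF1R ligand, had between 0 and 8 counts and was below the filter. Cx3cl1, which encodes fractalkine, lay between 14.6 and 19.9 CPM at E11.5 and between 9.77 and 13.7 CPM at E12.5, also with overlap. Csf1 and Il34 were named after their values were seen. Csf2ra, a receptor chain for the growth factor GM-CSF, had log2 fold changes of -0.13 and 0.42, and Tgfb1, the TGF-beta ligand that microglia need, -0.17 and -0.12. Of 10 genes for CSF1R, CX3CR1 and TGF-beta ligands and receptors, Csf1r and Cx3cr1 included, 9 were tested and none met the criterion. Their medians were 0.01 at E11.5 and 0.18 at E12.5 on the log2 scale. The most abundant was Tgfbr1, a receptor of the TGF-beta family, with 149 and 150 CPM in Mboat7+/- and 180 and 165 CPM in Mboat7-/- cortices at E11.5 (log2 fold change 0.20, standard error 0.07, unadjusted p = 0.0175, adjusted p = 0.26 from edgeR). At E12.5 it was at 172 and 152 against 172 and 155 CPM, a log2 fold change of 0.01. Tgfbr2, its partner receptor, was higher without overlap at both stages and had a log2 fold change of 0.29 over both (standard error 0.10, unadjusted p = 0.0113, adjusted p = 0.307 from edgeR).

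Mrc1, which encodes the mannose receptor CD206 and is listed here with genes of border and yolk sac macrophages, differed most steadily between the genotypes among the members. It had 260 and 285 counts in Mboat7+/- and 474 and 399 counts in Mboat7-/- cortices at E11.5, or 12 and 10.8 CPM against 16.8 and 16.2 CPM. At E12.5 the counts were 223 and 163 against 259 and 355, or 10.7 and 7.55 CPM against 11.3 and 15.7 CPM. The genotypes did not overlap at either stage, although at E12.5 the first cortices of both genotypes were close. For Mrc1 the log2 fold change was 0.54 (standard error 0.16, unadjusted p = 0.00829, adjusted p = 0.214 from edgeR) at E11.5 and 0.56 (standard error 0.21, unadjusted p = 0.022, adjusted p = 0.954) at E12.5. Over both stages it was 0.55 (standard error 0.13, 95% interval 0.26 to 0.84), a 1.47-fold difference with unadjusted p = 0.00117 and adjusted p = 0.274 from edgeR, the 64th smallest p of 15008 genes. The direction held in 4 of 4 cortices, and the difference did not pass the adjusted threshold. At E12.5 the value was 0.30 without Mboat7-/- replicate 2, 0.33 without Mboat7+/- replicate 2, and 0.78 with adjusted p = 0.0117 (edgeR) without Mboat7-/- replicate 1, which is under 0.05 but still short of a log2 fold change of 1.

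Set against Csf1r in the same cortex, Mrc1 had 67.2 and 72.2 counts per 100 Csf1r counts in Mboat7+/- and 95.8 and 86.4 in Mboat7-/- cortices at E11.5. At E12.5 it had 69 and 60.6 against 70.6 and 91.5. The ratio was higher in the Mboat7-/- cortices at both stages, with 1 of them at E12.5 close to the controls, and the ratio was not tested.

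Ptprc encodes CD45, a phosphatase on the surface of all white blood cells, and was the least abundant member per kilobase. It had 22 and 38 counts in Mboat7+/- and 47 and 52 in Mboat7-/- cortices at E11.5, and 19 and 10 against 20 and 31 at E12.5. The lowest of these, 10 counts or 0.463 CPM, has an exact 95% Poisson interval from 0.222 to 0.852 CPM. Its log2 fold changes were 0.58 (standard error 0.43) and 0.70 (standard error 0.47), and over both stages 0.63 with a 95% interval from -0.01 to 1.27 (unadjusted p = 0.0538, adjusted p = 0.41 from edgeR). The genotypes did not overlap at E11.5 and overlapped at E12.5. Without Mboat7+/- replicate 2 the E12.5 value was 0.29, and without Mboat7+/- replicate 1 it was 1.26.

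Aif1, which encodes the actin-binding protein IBA1 that marks microglia in tissue sections, was the one member below 0 at both stages. It had 20 and 44 counts in Mboat7+/- and 28 and 28 in Mboat7-/- cortices at E11.5, and 24 and 24 against 11 and 22 at E12.5. At E12.5 this was 1.15 and 1.11 CPM against 0.477 and 0.971 CPM, with both Mboat7-/- cortices lower. The values of Aif1 on the log2 scale were -0.33 (standard error 0.49) and -0.64 (standard error 0.45, unadjusted p = 0.176, adjusted p = 0.954 from edgeR), and over both stages -0.45 with an interval from -1.14 to 0.23. The value at E11.5 turned to 0.20 without Mboat7+/- replicate 2, and the value at E12.5 was -0.22 without Mboat7-/- replicate 1 and -1.23 without Mboat7-/- replicate 2.

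C1qa, C1qb and C1qc encode the A, B and C chains of C1q, which are assembled into 1 molecule, the part of complement that recognises its targets. The genes stand next to each other on chromosome 4 of GRCm38, on the minus strand, C1qb from 136880129 to 136886187, C1qc from 136889804 to 136893065 and C1qa from 136895917 to 136898803. Their values between the genotypes were not alike. C1qa had 117 and 149 counts in Mboat7+/- and 162 and 171 in Mboat7-/- cortices at E11.5, or 5.4 and 5.63 CPM against 5.73 and 6.92 CPM. At E12.5 it had 78 and 84 against 112 and 137 counts, or 3.75 and 3.89 CPM against 4.86 and 6.05 CPM, again without overlap. On the log2 scale C1qa differed by 0.19 (standard error 0.24) at E11.5, 0.51 (standard error 0.23, unadjusted p = 0.0458, adjusted p = 0.954 from edgeR) at E12.5, and 0.33 with an interval from -0.01 to 0.67 over both.

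C1qb had 224 and 237 counts in Mboat7+/- and 267 and 218 in Mboat7-/- cortices at E11.5, and 157 and 124 against 145 and 165 at E12.5, with the genotypes mixed at both stages. Its log2 fold change was -0.07 (standard error 0.19), 0.03 (standard error 0.21) and, over both, -0.02 with an interval from -0.31 to 0.26. C1qc was higher in both Mboat7-/- cortices at E11.5, with 159 and 157 against 264 and 216 counts or 7.34 and 5.93 CPM against 9.34 and 8.75 CPM. At E12.5 it was nearly level, with 116 and 106 against 130 and 126 counts or 5.57 and 4.91 CPM against 5.64 and 5.57 CPM. On the log2 scale C1qc differed by 0.46 (standard error 0.21, unadjusted p = 0.0611, adjusted p = 0.381 from edgeR) at E11.5 and 0.10 (standard error 0.20) at E12.5. Over both it was 0.31, with unadjusted p = 0.0477 and adjusted p = 0.4 from edgeR. For neither gene did the difference between the stages pass the interaction test of edgeR (adjusted p = 0.931 for C1qc and 0.955 for C1qa).

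Levels across the complement system ranged widely. Of 14 complement genes, C1qa, C1qb and C1qc among them, 11 were tested at E11.5 and 10 at E12.5. None met the criterion, and the medians, which include these members, were 0.03 and 0.12 on the log2 scale. C3, the central component, had between 2 and 11 counts and C4b between 0 and 2, both below the filter and named after their values were seen. C3ar1, the receptor for a fragment of C3, was at 2.12 and 1.81 CPM in Mboat7+/- and 3.82 and 2.83 CPM in Mboat7-/- cortices at E11.5, and at 1.97 and 1.39 against 2.04 and 2.3 CPM at E12.5. It was higher without overlap at both stages, with a log2 fold change of 0.62 over both (standard error 0.23, unadjusted p = 0.0177, adjusted p = 0.334 from edgeR). Cd93, the most abundant gene of this group and one that endothelial cells also express, lay between 47.8 and 62.4 CPM in the 8 cortices, with a log2 fold change of 0.10 over both stages. Serping1, which encodes the inhibitor of the C1 complex, was named after its values were seen. Its mean was 20.4 CPM in Mboat7+/- and 20.7 CPM in Mboat7-/- cortices at E11.5, and 11.3 and 10.9 CPM at E12.5.

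Tyrobp and Fcer1g encode DAP12 and the Fc receptor gamma chain, adaptor proteins whose ITAM motifs carry signals from receptors such as TREM2 to the kinase SYK. Tyrobp had 70 and 88 counts in Mboat7+/- and 60 and 84 in Mboat7-/- cortices at E11.5, or 3.23 and 3.32 CPM against 2.12 and 3.4 CPM. At E12.5 the counts were 36 and 29 against 54 and 66, or 1.73 and 1.34 CPM against 2.34 and 2.92 CPM. The Mboat7-/- cortices thus lay on either side of the controls at E11.5 and above them at E12.5. Its log2 fold changes were -0.27 (standard error 0.34) and 0.78 (standard error 0.32, unadjusted p = 0.0318, adjusted p = 0.954 from edgeR). The difference between the stages was 1.04 (standard error 0.48, unadjusted p = 0.0494, adjusted p = 0.888 for the interaction in edgeR), where 5.44% of all genes had an unadjusted p under 0.05 (2.62% above 0 and 2.82% below) and Tyrobp was the only member with one. The median of the members in that fit was 0.11, and 8 of them were above 0, as were 50.6% of all genes. That count of 1 became 0 in 13 of 19 alternatives, the RLE scaling, DESeq2 and the replicate block among them, and the 8 became 4 without Mboat7+/- replicate 2 or without Mboat7-/- replicate 2 of E12.5. Without Mboat7-/- replicate 1, the E11.5 value of Tyrobp was 0.05.

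Fcer1g had 119 and 110 counts in Mboat7+/- and 173 and 71 in Mboat7-/- cortices at E11.5, and 43 and 45 against 42 and 65 at E12.5. The Mboat7-/- cortices of E11.5 differed 2.13-fold from each other, at 6.12 and 2.87 CPM, the widest spread of any member in any group. Its log2 fold changes were -0.05 (standard error 0.37) and 0.18 (standard error 0.32). With 1 of these cortices left out it moved from -0.74, without Mboat7-/- replicate 1, to 0.35, without Mboat7-/- replicate 2.

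Among 13 genes for ITAM adaptors, their receptors and kinase, Tyrobp and Fcer1g included, 9 were tested at each stage and none met the criterion. Their medians were -0.17 at E11.5 and 0.18 at E12.5. Trem2, which pairs with DAP12, had 18 and 28 counts in Mboat7+/- and 31 and 27 in Mboat7-/- cortices at E11.5, and 17 and 23 against 32 and 28 at E12.5. It was chosen for naming after its values were seen, and its log2 fold change over both stages was 0.34 (standard error 0.28). Fcgr1, an activating receptor for antibody that signals through the Fcer1g product, had 63 and 56 against 73 and 23 counts at E11.5 and 35 and 25 against 19 and 23 at E12.5, a log2 fold change of -0.51 over both (standard error 0.32, unadjusted p = 0.137, adjusted p = 0.511 from edgeR). Sirpa, the most abundant of these genes and one that neurons also express, lay between 43.9 and 56 CPM, with a log2 fold change of -0.03 over both stages.

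The members were next set beside wider groups of macrophage genes. Of 14 genes known from microglia, 13 were tested at E11.5 and 14 at E12.5, with medians of 0.13 and 0.09 on the log2 scale and 8 and 11 genes above 0. The sum of this group was carried by Sparc, at 226 to 376 CPM, and Sall1, at 101 to 181 CPM, which other cells of the embryonic brain also express. P2ry12, a purine receptor of resting microglia and here chosen after its values were seen, had between 20 and 59 counts, with log2 fold changes of -0.16 and 0.05 at the earlier and the later stage. Tmem119, a membrane protein of adult microglia that mesenchyme also makes, had 341 and 551 counts in Mboat7+/- and 880 and 588 in Mboat7-/- cortices at E11.5 (log2 fold change 0.58, standard error 0.18, unadjusted p = 0.0105, adjusted p = 0.23 from edgeR), but 77 and 66 against 68 and 57 at E12.5. Slc2a5, a fructose transporter of microglia, had 25 and 33 against 51 and 47 counts at E12.5 (log2 fold change 0.65, standard error 0.32, unadjusted p = 0.0711, adjusted p = 0.954 from edgeR). Olfml3 was at 4.72 to 19.9 CPM and Fcrls, found in few cells other than microglia, at 5.42 to 6.98 CPM. For Fcrls the log2 fold change was 0.05 (standard error 0.23) at E11.5 and 0.13 (standard error 0.20) at E12.5.

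Of 14 genes of border and yolk sac macrophages, Mrc1 among them, 8 were tested at E11.5 and 9 at E12.5, and none met the criterion. Their medians were 0.25 and 0.12, with 6 and 8 genes above 0. Stab1, a scavenger receptor that endothelium shares, was at 47.5 and 54.3 CPM in Mboat7+/- and 65.5 and 60.4 CPM in Mboat7-/- cortices at E11.5, a log2 fold change of 0.30 (standard error 0.10, unadjusted p = 0.0133, adjusted p = 0.241 from edgeR), and 0.12 at E12.5. F13a1, a transglutaminase of such macrophages, had log2 fold changes of 0.34 and 0.12. Pf4, shared with platelets, had -0.19 and 0.12, and Apoe, the most abundant of the group at 43.6 to 116 CPM, 0.05 and 0.17. Lyve1, a hyaluronan receptor of vessel-associated macrophages and lymphatic endothelium, had 128 and 152 counts in Mboat7+/- and 62 and 114 in Mboat7-/- cortices at E11.5, against 83 and 42 and 86 and 114 at E12.5. Its log2 fold changes were -0.80 and 0.57, and the difference between them, 1.37, had unadjusted p = 0.0212 and adjusted p = 0.888 in the edgeR interaction fit. Cd163 and Cd209f, markers of mature border macrophages, were at 0 in all 8 cortices, which allows up to 0.144 CPM in the shallowest cortex.

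Of 20 general macrophage and phagocytosis genes, 19 were tested at E11.5 and 18 at E12.5, with 15 and 12 above 0, medians of 0.15 and 0.12, and none meeting the criterion. Both Mboat7-/- cortices lay above both Mboat7+/- cortices for 10 of the 19 genes and below for 2 at E11.5, and above for 5 and below for 3 of the 18 at E12.5 (all genes: 23.1% and 23.3% at E11.5, 16.9% and 15.2% at E12.5). Lyz2, which encodes lysozyme, had 53 and 69 counts in Mboat7+/- and 143 and 124 in Mboat7-/- cortices at E11.5, a log2 fold change of 0.99 (standard error 0.29, unadjusted p = 0.0075, adjusted p = 0.212 from edgeR), and 74 and 49 against 66 and 99 at E12.5, a value of 0.32. Cybb, a subunit of the oxidase that phagocytes use, had 17 and 21 against 11 and 10 counts at E12.5, a log2 fold change of -0.95 (standard error 0.46, unadjusted p = 0.0632, adjusted p = 0.954 from edgeR). Axl, a receptor for dying cells and the most abundant of the group, lay between 50.8 and 64.1 CPM and had a log2 fold change of 0.08 over both stages.

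Of 10 transcription factors of the myeloid lineage, all were tested, 8 were above 0 at each stage and none met the criterion, with medians of 0.10 and 0.27. Spi1, which encodes PU.1 and was named after its values were seen, had 73 and 94 counts in Mboat7+/- and 100 and 50 in Mboat7-/- cortices at E11.5, and 31 and 36 against 44 and 34 at E12.5, overlapping at both. Maf, expressed in macrophages and in other cells of the embryo, was at 14.2 and 16.8 CPM against 25.9 and 20.6 CPM at E11.5, with a log2 fold change of 0.47 over both stages (standard error 0.14, unadjusted p = 0.00493, adjusted p = 0.307 from edgeR). Ikzf1, a factor of blood cell lineages, was at 2.31 and 2.69 against 3.34 and 3.67 CPM at E12.5 (log2 fold change 0.49, standard error 0.26, unadjusted p = 0.0899, adjusted p = 0.954 from edgeR). When the genotype difference was compared between the stages, the smallest p of this group was that of Fli1 (adjusted p = 0.895 from edgeR), that of the phagocytosis genes was Mertk, a receptor for dying cells (adjusted p = 0.888), and that of the complement genes was C1s1, a protease of the C1 complex (adjusted p = 0.915).

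**Figure D3:**
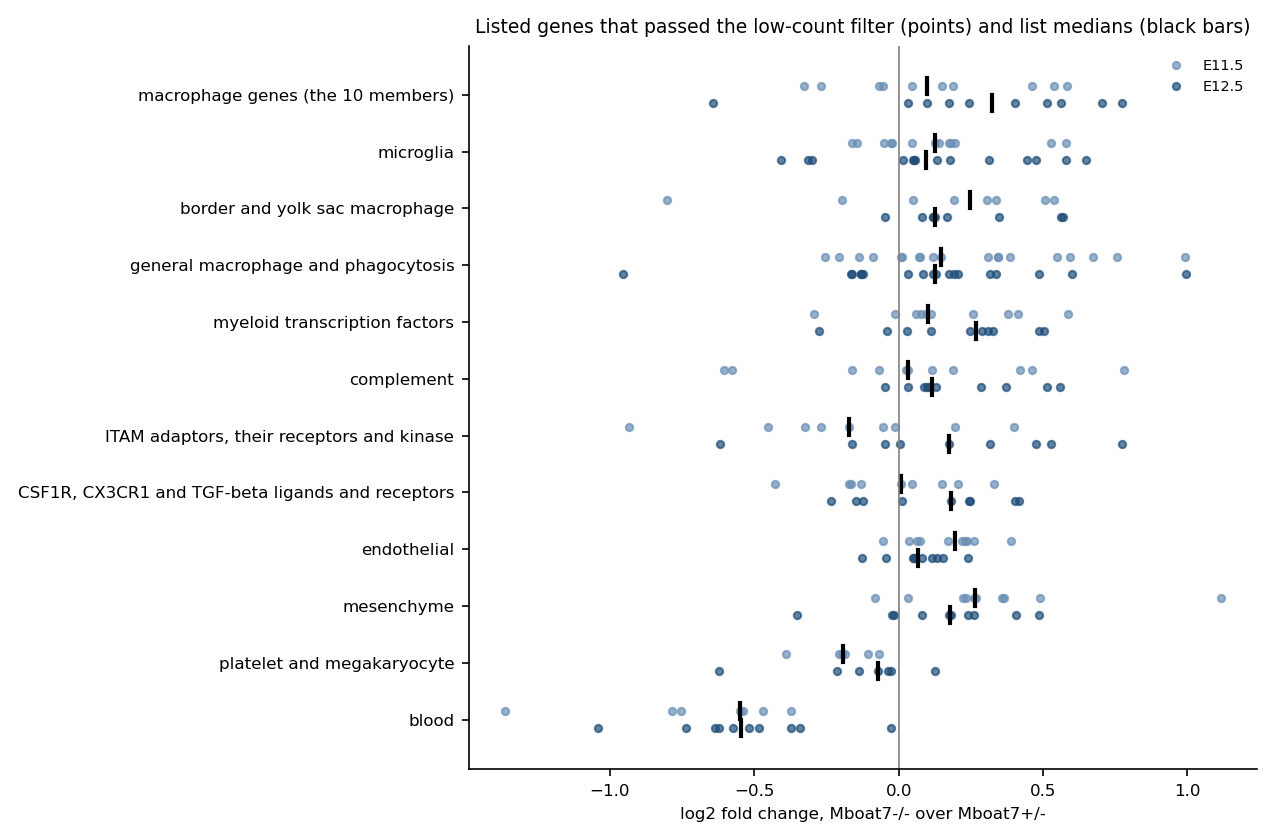
Log2 fold change, Mboat7-/- over Mboat7+/-, of each listed gene that passed the low-count filter (light points E11.5, dark points E12.5), with list medians as black bars. The medians of the 10 macrophage genes lie at 0.10 and 0.32, and those of the blood genes at -0.55 at both stages.

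Markers of other cells also varied between the cortices. Blood genes, mainly haemoglobin chains (Hba-a1 and Hba-a2 are listed at 0 at E11.5), summed to 6958 and 5245 CPM in Mboat7+/- and 3639 and 3880 CPM in Mboat7-/- cortices at E11.5, and to 5342 and 7770 against 5438 and 3834 CPM at E12.5. Their median log2 fold change was -0.55 at both stages, and all 7 genes tested at E11.5 and all 10 at E12.5 were below 0. Mesenchyme genes, 10 in number, summed to 1640 and 1585 CPM in Mboat7+/- and 1854 and 2016 CPM in Mboat7-/- cortices at E11.5 and to 700 and 544 against 675 and 732 CPM at E12.5, with medians of 0.26 and 0.18. The 10 endothelial genes summed to 344 and 329 against 382 and 370 CPM and to 304 and 298 against 314 and 324 CPM, with medians of 0.19 and 0.07. At E12.5 the cortex with the lowest macrophage sum, Mboat7+/- replicate 2 (46.7 CPM), was also the one with the most blood and the least mesenchyme RNA. The cortex with the highest, Mboat7-/- replicate 2 (70.4 CPM), had the least blood and the most mesenchyme RNA. The part of these markers in the values of the macrophage genes was not tested.

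Other white blood cells left little RNA. The summed level of 14 genes of monocytes, neutrophils, mast cells and lymphocytes lay between 0.347 and 6.11 CPM, and Cd3e, Nkg7 and Mcpt4, which mark T cells, natural killer cells and mast cells, were at 0 in all 8 cortices. Ccr2, a chemokine receptor of monocytes, had 2 and 4 counts in Mboat7+/- and 18 and 14 in Mboat7-/- cortices at E11.5, and 1 and 0 against 3 and 4 at E12.5. Its E11.5 log2 fold change was 2.23 (standard error 0.77, unadjusted p = 0.017, adjusted p = 0.26 from edgeR), and the difference is of a few counts. Mpo, an enzyme of neutrophil precursors, had 10 and 19 counts in Mboat7+/- against 3 and 0 in Mboat7-/- cortices at E12.5 (unadjusted p = 0.00311, adjusted p = 0.954 from edgeR), opposite in sign to most macrophage genes. The 7 platelet genes, Pf4 included, summed to between 24.1 and 42.6 CPM.

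**Figure D4:**
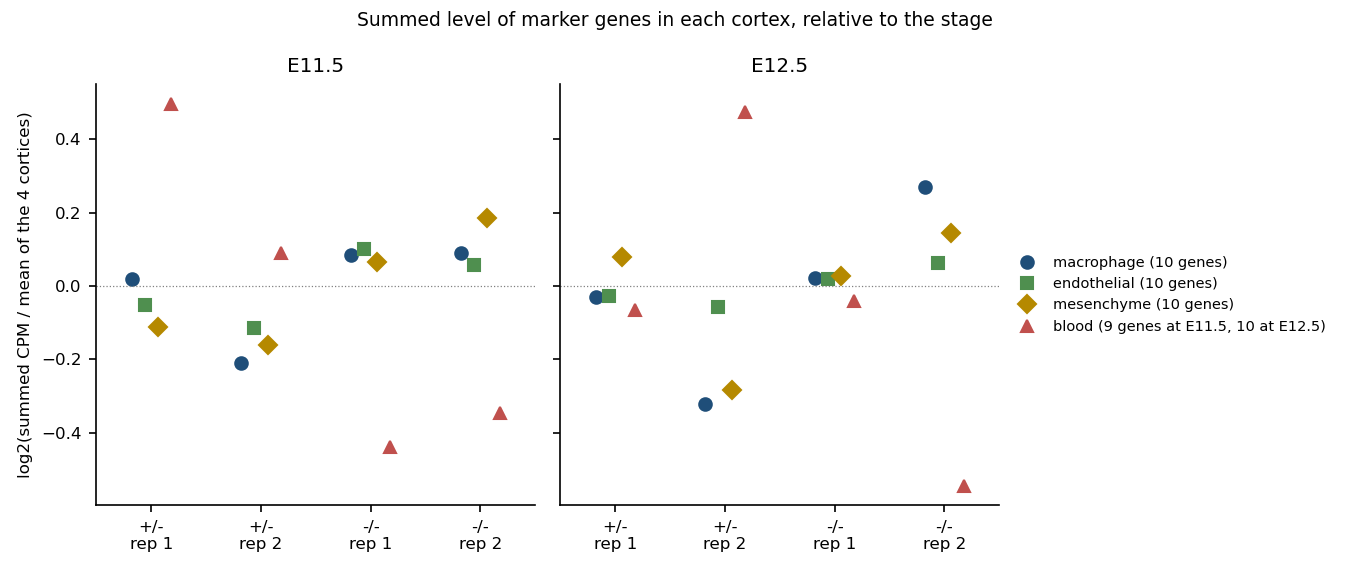
Summed CPM of the 10 macrophage genes and of endothelial, mesenchyme and blood genes in each cortex, as log2 of the ratio to the mean of the 4 cortices of the stage. At E12.5 the macrophage and mesenchyme sums are lowest in Mboat7+/- replicate 2 and highest in Mboat7-/- replicate 2, where the blood sum is highest and lowest, respectively.

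The difference between genotypes also went with the length of the transcript, in classes set after the values were seen. The 4 members with a transcript of 4 kb and over, Csf1r, Cx3cr1, Ptprc and Mrc1, had log2 fold changes above 0 at both stages, with medians of 0.34 and 0.48. Of the 6 with a transcript under 1.5 kb, 2 were above 0 at E11.5 (median -0.06) and 5 at E12.5 (median 0.14). Over all genes tested, the median at E11.5 went from -0.14 for transcripts under 1.5 kb to 0.11 for those of 4 kb and over, and the same medians at E12.5 were -0.06 and 0.05. Once a trend with length and GC content was taken out of every library, Mrc1 differed by 0.39 (E11.5) and 0.47 (E12.5) on the log2 scale, and the median of the members was 0.10 and 0.30.

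**Figure D5:**
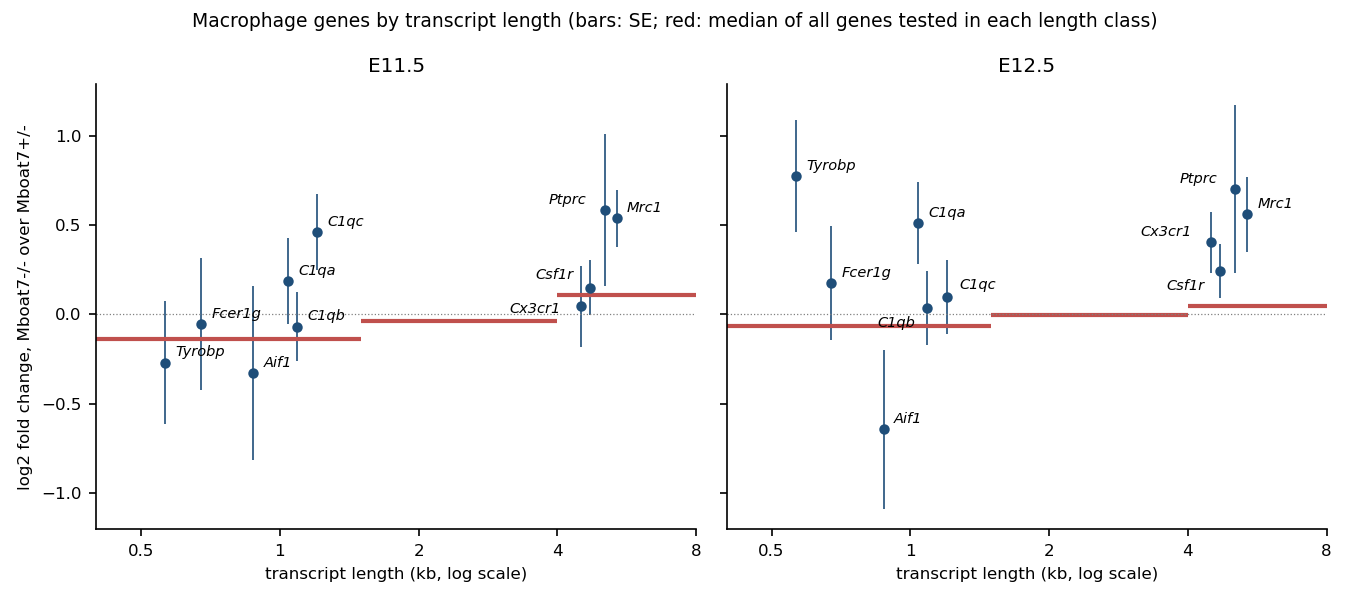
Log2 fold change of the 10 genes against the length of their transcript (log scale), at E11.5 and E12.5, with bars for the standard error and red lines for the median of all genes tested in 3 length classes. The 4 long transcripts lie above 0 at both stages, and the red medians step upward with length.

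The members varied together only in part. With the stage mean taken away from log2 CPM, Mrc1 correlated with the mean of the other members at r = 0.88 over the 8 cortices, Csf1r at 0.81, Ptprc at 0.78 and C1qa at 0.72. Fcer1g was at 0.08 and Aif1 at -0.33. These values are descriptive, since the cortices share libraries, depth and genotype with every gene compared. Of 12815 other genes with enough counts, those most like the mean of the members were Synj1 (r = 0.99), Zbtb38 (r = 0.98), Eml5 (r = 0.98), Dab2 (r = 0.98) and Sema6d (r = 0.98). Dab2, an endocytic adaptor, stands also in the list of border macrophage genes. It was at 76.5 and 75.8 CPM in Mboat7+/- and 87.1 and 86.9 CPM in Mboat7-/- cortices at E11.5, and at 22.6 and 16.6 against 21.7 and 28.1 CPM at E12.5. The mean deviation of the members at E12.5 was -0.28 in Mboat7+/- replicate 2 and 0.33 in Mboat7-/- replicate 2, against 0.01 and -0.05 in the first replicates, so the likeness rests largely on those 2 cortices.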

How the data were processed

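The authors deposited raw read counts per gene, unnormalized, as 1 table for each stage with 1 column for each cortex. Submitters' processing notes name HISAT2, Subread, mm10 and GRCm39, and which was used for which table is not given in the sources used here. The kit was directional, and the strand setting of the counting is not given either. E12.5 Ensembl identifiers were paired with symbols for 81.4% of genes with a count, and 22845 genes were found in both tables.

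The count tables were fitted with edgeR 4.0.16 in R 4.3.3 (TMM, filterByExpr with a minimum count of 10, the quasi-likelihood test and FDR by the Benjamini-Hochberg method over all genes tested), each stage alone, over both stages with stage as a term, and with the interaction. Fold changes compare cortices labelled Mboat7-/- with Mboat7+/-. The fits were also run on simulated counts drawn without effects of sex or batch, so that run says nothing about such effects. Its outcome is not given here. CPM used TMM-scaled totals. Alternatives were other normalizations, filters and tests (DESeq2 1.42.0, edgeR's exact test and its earlier quasi-likelihood form), a replicate block and each cortex left out. After the data were seen, removal of a length and GC trend, halved E11.5 counts and a crossed pairing were added. Transcript lengths came from GENCODE M21 (GRCm38). Tables and figures were made with Python 3.11.15, pandas 2.3.3, numpy 2.4.6 and matplotlib 3.10.9.

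The sample titles give a replicate number and name no batch. The block assumed a pairing of same-numbered cortices, which the titles do not state. Across genes, their deviations from the genotype means correlated at 0.083 (E11.5) and -0.20 (E12.5). Replicates are separate embryos by the labels, and no pair agreed within sampling noise. The members and lists were chosen with earlier results of these data known. Named genes are all members and, from the lists, the gene with the smallest p in each comparison, the most abundant genes, defining markers at 0 and the 5 genes most like the members. Of the lists of other cells only sums, medians and single genes are given. One gene that the rule named is not reported here. Any other name is given as chosen after its values were seen. Exact permutation of 2 against 2 cortices cannot give a p below 0.333, so single values rest on the fit across genes.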

Additional observations from a re-analysis of the deposited data

Results flagged for a closer look

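In some named genes the genotypes separated without overlap at each stage, but with opposite signs, and none of the 10 macrophage genes was among them. Of all genes, 23.1% lay above and 23.3% below without overlap at E11.5, and 16.9% above and 15.2% below at E12.5. The share of all genes with opposite signs was not counted, so the genes below are a description only. Tmem119 differed by -0.88 on the log2 scale between E12.5 and E11.5 (standard error 0.39, unadjusted p = 0.0416, adjusted p = 0.888 for the interaction of stage and genotype in edgeR). Syk, the kinase downstream of the ITAM adaptors, was higher in Mboat7-/- cortices at E11.5 and lower at E12.5, a difference of -0.56 (standard error 0.29, unadjusted p = 0.0724, adjusted p = 0.888 in the edgeR fit). Mboat7 itself differed by -0.34 (standard error 0.14, unadjusted p = 0.0319, adjusted p = 0.888 in edgeR). The mesenchyme marker Twist1 differed by -0.59 (unadjusted p = 0.0626, adjusted p = 0.888 in edgeR) and the cortical progenitor gene Pax6 by 0.47 (unadjusted p = 0.00185, adjusted p = 0.528 in edgeR). Stage and provider cannot be told apart in these differences.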

How the results depend on the processing

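No macrophage gene met the criterion under any alternative run. Over both stages the log2 fold change of Mrc1 lay between 0.42 and 0.64 under all of them. With the replicate block, which assumes that same-numbered cortices are pairs, 40 genes met the criterion at E11.5 and 21 at E12.5. Fcer1g turned to -0.024 over both stages with the block. Other settings gave 12 (DESeq2), 41 (edgeR's exact test), 1 (at least 10 counts in every cortex) and 6 (trend removed with the block) at E11.5. At E12.5 they gave 5 (DESeq2), 16 (exact test), 0 (no filter), 0 (a minimum of 10 counts in each cortex), 5 (trend removed), 31 (trend removed with the block) and 29 (crossed pairing). The trend removed with the block gave 3 over both stages, and DESeq2 gave 6 for the interaction.

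With the length and GC trend removed, alone and with the block, Cx3cr1 turned to -0.0192 and -0.025, C1qb to 0.084 and 0.075 and Fcer1g to 0.099 and 0.032 at E11.5, and C1qb to 0.088 and 0.084 over both stages.

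With each cortex left out in turn, genes meeting the criterion numbered 1 to 168 at E11.5, 24 to 105 at E12.5, 0 to 13 over both and 0 to 44 for the interaction. The members' median ran from 0.074 to 0.22 (highest without Mboat7+/- replicate 1, the cortex with Xist), from 0.23 to 0.46, from 0.13 to 0.30 and from -0.073 to 0.33. At E11.5, Cx3cr1 ran from -0.24 to 0.35, C1qb from -0.17 to 0.033, Aif1 from -0.65 to 0.20, Tyrobp from -0.63 to 0.053 and Fcer1g from -0.74 to 0.35. At E12.5, C1qb ran from -0.15 to 0.24 and Fcer1g from -0.18 to 0.46. Over both, C1qb ran from -0.094 to 0.032, Tyrobp from -0.015 to 0.39 and Fcer1g from -0.30 to 0.29. For the interaction, Csf1r ran from -0.061 to 0.26, C1qb from -0.086 to 0.31, Aif1 from -0.91 to 0.11, Fcer1g from -0.18 to 0.89, Ptprc from -0.30 to 0.68 and Mrc1 from -0.24 to 0.30. The cause of these reversals was not tested. A lone cortex was assumed to vary like the other genotype. At counts between 10 and 495, the standard errors of the members at a single stage ran from 0.15 to 0.49 on the log2 scale, which limits what 2 against 2 cortices can show.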
